A study of Mus musculus with 6 samples.

Results

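The embryonic myosin and muscle regeneration genes are 10 genes chosen by symbol from the 53819 listed in the count table: *Pax7*, *Myf5*, *Myod1*, *Myog*, *Mymk*, *Mymx*, *Myh3*, *Myh8*, *Myl4* and *Actc1*. All 10 passed the filter on low counts. *Myh3* was picked because it was higher in DTR tendons, so its difference between the groups is described here without a test. RNA was sequenced from flexor digitorum longus (FDL) tendons of the mouse hind paw, 28 days after transection and repair, with 1 tendon per library and 3 libraries per group. DTR mice were Scx-Cre+; DTR F/+, in which Cre driven by *Scx* switches on the diphtheria toxin receptor in the Scleraxis lineage, and WT mice were Scx-Cre-; DTR F/+ littermates that carry the same silent receptor allele. Both groups had surgery at 10 to 12 weeks of age, were of both sexes, and received 5 daily injections of 100 ng diphtheria toxin (DT) from D14 to D18. *Scx-Cre* is not inducible, so the receptor marks every cell whose lineage ever expressed *Scx*. The FDL was also cut at its junction with the muscle during surgery, and separation of the tendon from its muscle at harvest is described for the mechanical tests only.

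Growing and regenerating skeletal muscle passes through ordered stages. Stem cells marked by *Pax7* become myoblasts that express *Myf5* and *Myod1*, myogenin (*Myog*) then starts differentiation, and the membrane proteins encoded by *Mymk* (myomaker) and *Mymx* (myomixer) fuse the cells into fibres. New fibres first build their contractile units with embryonic and neonatal isoforms, among them the myosin heavy chains of *Myh3* and *Myh8*, the light chain of *Myl4* and the alpha-actin of *Actc1*, and replace these with adult isoforms such as *Acta1* as they mature.

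The start regions of 3 of the later genes are shown because the myogenic factors in the list bind E-boxes, the letters CANNTG, which read the same on both strands. Each is the 250 bases before the RefSeq transcript start (GRCm38.p6, plus strand), with E-boxes in capitals. *Myh3* lies at chr11:67078050-67078299, *Myh8* at chr11:67276874-67277123 and *Myog* at chr1:134289754-134290003.
Myh3: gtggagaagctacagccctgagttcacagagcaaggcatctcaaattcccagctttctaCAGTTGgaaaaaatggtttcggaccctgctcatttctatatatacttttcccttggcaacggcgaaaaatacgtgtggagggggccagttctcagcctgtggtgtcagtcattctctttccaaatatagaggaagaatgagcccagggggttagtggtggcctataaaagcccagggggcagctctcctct
Myh8: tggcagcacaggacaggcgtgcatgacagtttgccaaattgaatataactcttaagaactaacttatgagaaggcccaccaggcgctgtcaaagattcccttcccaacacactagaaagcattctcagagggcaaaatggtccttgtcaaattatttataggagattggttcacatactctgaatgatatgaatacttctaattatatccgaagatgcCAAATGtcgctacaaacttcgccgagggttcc
Myog: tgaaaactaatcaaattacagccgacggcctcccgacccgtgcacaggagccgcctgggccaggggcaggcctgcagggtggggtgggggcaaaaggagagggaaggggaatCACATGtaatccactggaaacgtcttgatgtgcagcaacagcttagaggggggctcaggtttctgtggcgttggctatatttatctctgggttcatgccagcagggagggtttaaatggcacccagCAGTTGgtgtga
E-boxes began 191 bases before the start of *Myh3*, 32 before that of *Myh8*, and 138 and 12 before that of *Myog*. Of the 7 members with a RefSeq start region, these 3 held an E-box, as did 66.2% of the 32851 regions of this length, and 0 held CAGCTG, which 13% of all regions held. The start regions of *Myod1*, *Mymk* and *Mymx* were not analysed here.

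The libraries held from 42744138 to 48854310 counts. The 10 genes held 0.00571% to 0.0103% of the counts in WT libraries and 0.00762%, 0.0319% and 0.0268% in DTR replicates 1 to 3. All libraries held abundant tendon transcripts, with *Tnmd* between 50499 and 92191 normalized counts. All also held adult skeletal muscle transcripts, which in bulk RNA come from an unknown amount of muscle. A list of 30 adult fast muscle genes took 2.20% to 3.04% of the counts in WT libraries, 2.65% in DTR replicate 2, 0.371% in DTR replicate 1 and 0.697% in DTR replicate 3. Keratinocyte transcripts were high in WT replicates 1 and 2 and intermediate in DTR replicate 3. *Xist* marked WT replicate 2 and DTR replicates 2 and 3, and the Y-linked *Ddx3y* marked the other 3 libraries. Levels below are normalized counts, scaled by TMM to the average library. Fewer cells of a type and less RNA per cell cannot be told apart in such samples.

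The estimates differed by the stage at which the genes act, a difference that was not itself tested. The stem cell and myoblast genes *Pax7*, *Myf5* and *Myod1* overlapped between the groups with no common direction, while *Myog*, both fusion genes and all 4 genes of the immature contractile apparatus were well above the WT range in DTR replicates 2 and 3 and mostly within it in DTR replicate 1. The median log2 fold change of the 9 genes other than *Myh3* was 1.14, beside 0.00815 over the 17496 genes tested. edgeR's quasi-likelihood test called 0 of the 9 genes other than *Myh3* at an adjusted p under 0.05 (adjusted p 0.429 to 0.975), against 0% of all genes tested. At an unadjusted p under 0.05, 1 of the 9, *Mymk*, was higher, against 5.52% of all genes, and 0 were lower, against 5.45%. Either direction together made up 11% of all genes. DESeq2 also called *Mymk* alone among the 9 (adjusted p = 0.0499), where it called 1.12% of all genes higher and 2.65% in either direction.

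**Figure D1:**
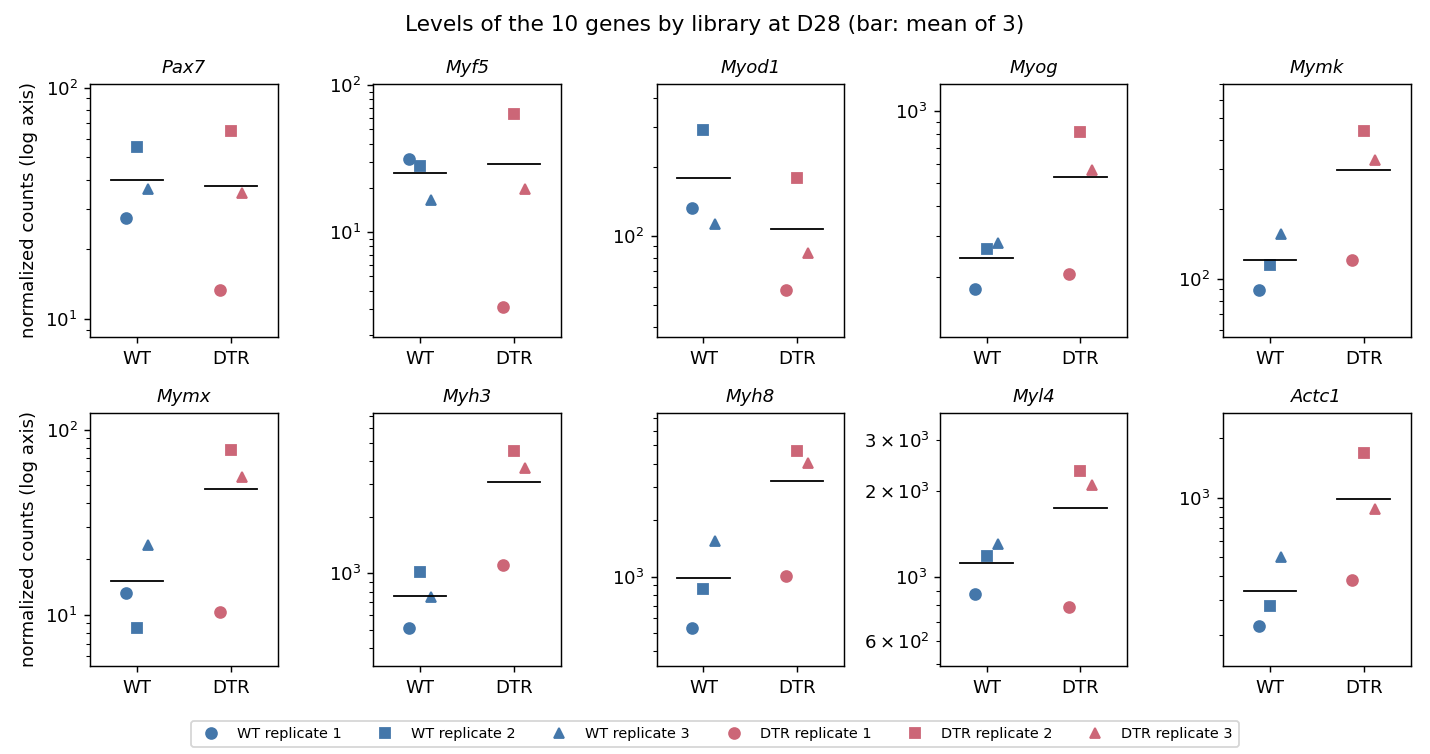
Normalized counts (log axis) of each gene in the 3 WT (blue) and 3 DTR (red) libraries, with the mean of each group as a bar and 1 marker shape per replicate number. DTR replicates 2 and 3 lie above all WT libraries in the 7 genes from Myog to Actc1, DTR replicate 1 does so in Myh3 alone, and Pax7, Myf5 and Myod1 show no such separation.

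*Pax7*, the transcription factor of muscle stem cells, was scarce, at 27.4, 55.5 and 36.4 normalized counts across WT replicates 1 to 3, against 13.4, 65.0 and 34.9 across DTR replicates 1 to 3. The highest and the lowest library were both DTR, with a log2 fold change of -0.07 (SE 0.56). *Myf5*, an early myoblast determination factor, stood at 31.5, 28.2 and 16.6 in WT and at 3.09, 64.1 and 19.5 in DTR libraries. With 3 raw counts in DTR replicate 1 and 67 in DTR replicate 2, its spread was the widest of the 10 within DTR tendons relative to the mean (log2 fold change 0.19, SE 0.88). Without DTR replicate 2 the log2 fold change of *Myf5* was -1.16.

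*Myod1*, the second determination factor, reached 133, 289.9 and 113 normalized counts across WT replicates 1 to 3, against 57.7, 179.8 and 84.2 across DTR replicates 1 to 3. It was the single member with a clearly negative estimate (log2 fold change -0.74, SE 0.53, adjusted p = 0.620 by edgeR's quasi-likelihood test), and DTR replicate 2 lay within the WT range. Within the *Xist*-marked libraries the DTR mean was 0.455 times the WT level, which is WT replicate 2 alone. Within the *Ddx3y*-marked libraries DTR replicate 1 alone was at 0.469 times the WT mean. A fit with this split as a term, added with the values known, gave -1.11 and an adjusted p of 0.312 (edgeR), with 0% of all genes called.

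*Myog*, which directs the step from dividing myoblast to differentiating muscle cell, was counted at 179.6, 265 and 281 (normalized) across WT replicates 1 to 3, against 207, 818 and 568 across DTR replicates 1 to 3. DTR replicates 2 and 3 were each above all WT libraries, and DTR replicate 1 was inside the WT range (log2 fold change 1.14, SE 0.50, adjusted p = 0.474 by edgeR). *Mymk*, whose product is needed on both partners of a fusing pair, stood at 89.3, 115 and 157 in WT and at 121, 439.9 and 329 in DTR libraries. The pattern was that of *Myog*, with group means of 120 ± 34.1 and 296 ± 162 (SD, n = 3 each) and a log2 fold change of 1.30 (SE 0.48). *Mymx*, a small membrane protein that completes fusion, was scarce, at 13.2, 8.47 and 23.9 in WT and 10.3, 77.5 and 55.5 in DTR libraries. Its log2 fold change came to 1.65 (SE 0.73), again with DTR replicate 1 among the WT libraries.

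*Myh3*, the embryonic myosin heavy chain, was read at 510.4, 1022 and 749 normalized counts across WT replicates 1 to 3, against 1109, 4559.6 and 3669 across DTR replicates 1 to 3. Each DTR library was above each WT library, by a narrow margin in DTR replicate 1 and several-fold in the others. The group means were 761 ± 256 and 3113 ± 1792 (SD, n = 3 each), 4.09-fold apart (log2 fold change 2.03, SE 0.62). These values chose the gene and are given as a description. Of the other 9 members, 0 had each DTR library above each WT library, where 8.96% of all genes tested did, and 0 the reverse, where 7.85% did.

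*Myh8*, the neonatal myosin heavy chain encoded in the same cluster as *Myh3*, stood at 536, 860.4 and 1552 in WT and at 1011, 4679 and 4051 in DTR libraries. DTR replicate 1 lay between WT replicates 2 and 3, so that the groups met (log2 fold change 1.72, SE 0.74). *Actc1*, the alpha-actin of heart and of immature skeletal muscle, followed with 222, 279.6 and 496 in WT and 381, 1693 and 879 in DTR libraries (1.57, SE 0.64). DTR replicate 1 was again inside the WT range and the others above it. *Myl4*, the light chain of embryonic muscle and of the atrium, changed least of the 4, with 874, 1184 and 1308 in WT and 787, 2339 and 2099 in DTR libraries (0.63, SE 0.44). Here DTR replicate 1 was the lowest library of all.

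Levels were compared between genes only per kilobase of exon, taken as the union of all annotated exons (GENCODE vM21 models). This union is 4637 bases for *Myl4* and 11772 for *Myh8*, whose longest coding transcripts have 943 and 6149. The order of the members therefore depends on the length used. In WT libraries *Myl4* was highest among the 10, with a mean of 242 normalized counts per kilobase, followed by *Actc1* at 205, *Myog* at 162 and *Myh3* at 126. In DTR libraries *Actc1* at 608 and *Myh3* at 514 led by the exon union, an order that the shorter *Myl4* transcript would change. *Pax7* was lowest in both groups, at 6.79 and 6.45. The leading neighbours overlapped in each group. *Acta1* stood at 70143 and *Ckm* at 17325 normalized counts per kilobase in WT libraries, and at 48162 and 7254 in DTR libraries.

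Against the genes of mature muscle the separation was wider. *Ckm*, the creatine kinase of adult fibres, was present at 66815, 46299 and 38285 normalized counts across WT replicates 1 to 3, against 6030.1, 47407 and 9953 across DTR replicates 1 to 3. *Acta1*, the adult skeletal alpha-actin, stood at 100779, 121391 and 101049 in WT and at 21987, 152650 and 47293 in DTR libraries. Both were below the WT range in DTR replicates 1 and 3. In DTR replicate 2 *Ckm* was within the WT range and *Acta1* above it, and neither passed edgeR's test (adjusted p = 0.629 and 0.815). All 30 genes of the adult fast list were fitted lower, with a median log2 fold change of -1.19, and 0 passed at an adjusted p of 0.05 or an unadjusted p of 0.05.

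Per 100 counts of *Ckm*, *Myh3* gave 0.764, 2.21 and 1.96 counts across WT replicates 1 to 3, against 18.4, 9.62 and 36.9 across DTR replicates 1 to 3. *Myog* had 0.269, 0.571 and 0.733 in WT and 3.43, 1.72 and 5.71 in DTR libraries on the same scale. The lowest DTR ratio thus exceeded the highest WT ratio in both genes. Of the 9 members other than *Myh3*, 7 had each DTR ratio to *Ckm* above each WT ratio, against 10.1% of all genes tested. The members that overlapped were *Myod1* and *Myf5*. Since the list was chosen with earlier results of these data known, these counts are a description. With *Acta1* as the denominator the count was 6 of 9, without *Pax7*, against 1.97% of all genes, and with the summed adult fast list it was 7 of 9, against 10%.

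A fall of the denominator raises the ratio of every gene, and the median log2 ratio to *Ckm* over all genes was 1.80 higher in DTR than in WT libraries. The same difference was 3.65 for *Myh3*, 3.37 for *Myh8*, 3.19 for *Actc1*, 3.12 for *Mymx*, 2.94 for *Mymk*, 2.74 for *Myog* and 2.30 for *Myl4*, but 1.51 for *Pax7*, 1.21 for *Myf5* and 1.02 for *Myod1*. The 7 later genes were therefore above the median of all genes and the 3 early genes below it. The count was 7 to 9 of the 9 members with 1 library left out, but that of all genes moved far more. It was 10.2% without DTR replicate 1 or 3, 10.6% and 12.7% without WT replicate 1 or 2, 44.1% without WT replicate 3 and 95.7% without DTR replicate 2, the DTR library with *Ckm* in the WT range. An exact permutation test of 3 against 3 cannot give a two-sided p under 0.10, so the ratios were not tested.

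**Figure D2:**
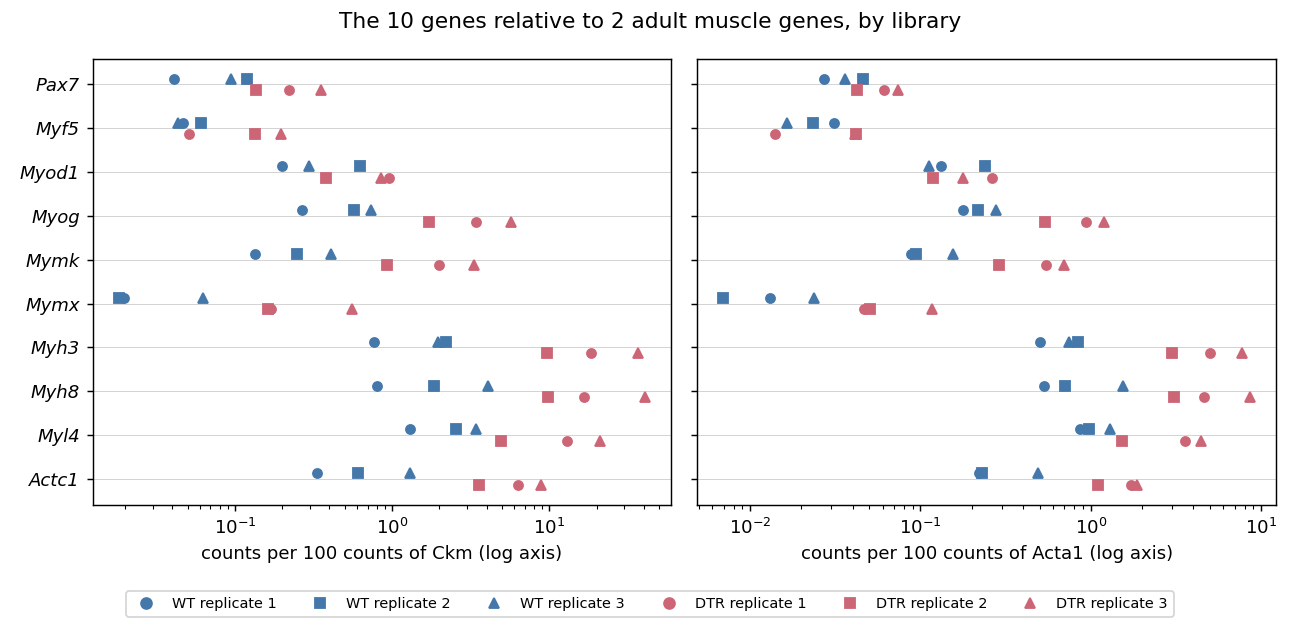
Counts of each gene per 100 counts of Ckm (left) and of Acta1 (right) in each library, on log axes, for WT (blue, upper row of each gene) and DTR (red, lower row). From Myog to Actc1 every DTR library lies to the right of every WT library in both panels, while Myf5 and Myod1 overlap in both and Pax7 overlaps against Acta1.

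Within their gene families *Myh3*, *Myh8* and *Actc1* took a larger share of the counts in each DTR library than in any WT library, and *Myl4* did not. *Myh3* and *Myh8* together held 0.332%, 0.724% and 1.00% of the counts of 7 skeletal myosin heavy chain genes (*Myh1*, *Myh2*, *Myh3*, *Myh4*, *Myh7*, *Myh8* and *Myh13*) across WT replicates 1 to 3, against 5.69%, 3.87% and 12.4% across DTR replicates 1 to 3. The 95% Wilson interval was 0.960% to 1.04% for the highest WT library and 3.79% to 3.95% for the lowest DTR library, covering counting error only. The mean share was 0.685% ± 0.336 in WT and 7.31% ± 4.48 in DTR tendons (SD, n = 3 each). *Actc1* held 0.220%, 0.230% and 0.488% of the counts of *Actc1* and *Acta1* in WT and 1.70%, 1.097% and 1.83% in DTR libraries. *Myl4* overlapped, with 1.54%, 2.61% and 3.62% of the counts of *Myl4* and its adult counterpart *Myl1* in WT and 7.74%, 3.33% and 11.4% in DTR libraries. These shares use the same counts as the ratios above and are not separate evidence.

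**Figure D3:**
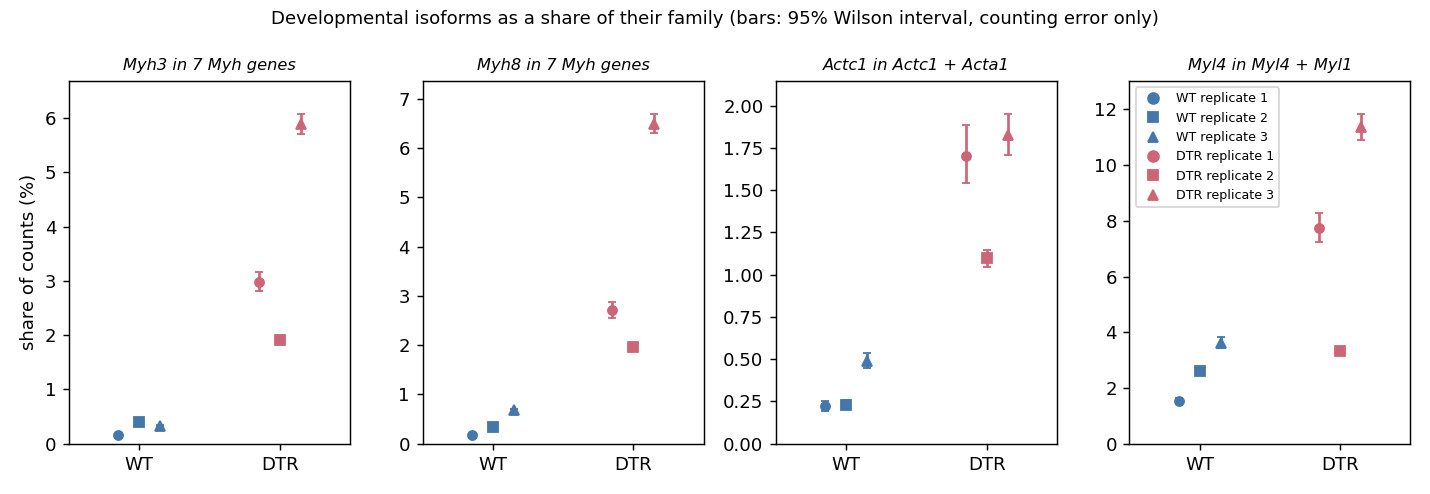
Share of counts (%) of Myh3 and Myh8 in 7 myosin heavy chain genes, of Actc1 in Actc1 plus Acta1, and of Myl4 in Myl4 plus Myl1, by library, with 95% Wilson intervals. WT (blue) and DTR (red) libraries are apart in the first 3 panels, and in the last DTR replicate 2 at 3.33% lies under WT replicate 3 at 3.62%.

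The adult paralogs of the myosin cluster moved the other way from *Myh3* and *Myh8* in the estimates, with log2 fold changes of -1.26 for *Myh1*, -1.24 for *Myh2*, -1.68 for *Myh4* and -1.52 for the slow *Myh7*, and -0.23 for *Myh13*, all with overlap. Of the 75-base windows of the *Myh3* transcript, 1.86% also occur in transcripts of another gene, and 12.9% of those of *Myh8* do, mostly shared with *Myh2*. Counting could have split or dropped such reads, so the levels of both, and of *Myh8* more than of *Myh3*, are uncertain in this respect. The other 8 members shared 0% of their windows. *Myl4* overlaps antisense genes, none with more than 5 counts in any library.

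At equal adult muscle level the 9 members other than *Myh3* were all fitted higher in DTR tendons. This fit added the mean log2 CPM of the adult fast list as a covariate, which leaves 3 residual degrees of freedom. That level was 8.62 to 9.09 in WT libraries, 8.88 in DTR replicate 2, 6.19 in DTR replicate 1 and 6.81 in DTR replicate 3. Only DTR replicate 2 was within the WT range, so the estimates at equal level depend on a linear term fitted across the libraries. *Mymk* was fitted at 1.89 log2 units (SE 0.49), *Myog* at 1.80 (0.47), *Mymx* at 2.41 (0.79), *Actc1* at 2.26 (0.62) and *Myf5* at 1.54 (0.61). These 5 of the 9 had an unadjusted p under 0.05, where 3.25% of all genes were higher at that level. The list was chosen with earlier results of these data known, so this count is not independent of them. edgeR's quasi-likelihood test gave 0 of the 9 an adjusted p under 0.05 (0.700 to 0.994), and 0% of all genes. *Myod1* was at 0.04 and *Pax7* at 0.75 in this fit. The median of these 9 members was 1.80, and those of the other skeletal muscle and junction lists described below lay between -0.23 and 0.53. That of the smooth muscle and myofibroblast list was -0.74.

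The libraries also split by sex-linked transcripts, with 2 of the 3 DTR but 1 of the 3 WT libraries *Xist*-marked. Among *Xist*-marked libraries the DTR mean was 4.02 times the WT level for *Myh3*, 5.07 times for *Myh8*, 4.6 times for *Actc1*, 2.62 times for *Myog*, 3.35 times for *Mymk*, 7.85 times for *Mymx* and 1.87 times for *Myl4*. Among *Ddx3y*-marked libraries, where DTR replicate 1 is the single DTR library, the corresponding values were 1.76, 0.968, 1.06, 0.9, 0.979, 0.556 and 0.722 times. *Myh3* was thus higher in DTR libraries of both kinds. The other 6 were higher among *Xist*-marked libraries and near or below the WT mean among *Ddx3y*-marked ones. An edgeR fit with an interaction, which leaves 2 residual degrees of freedom and was added with the values known, gave 0 of the 9 members other than *Myh3* an adjusted p under 0.05 for the difference between the kinds (0.999 for each, 0.00572% of all genes called). At an unadjusted p under 0.05 there were 4 of the 9, *Mymx*, *Myl4*, *Myog* and *Mymk*, against 2.16% of all genes. With the split as a term the log2 fold changes were 1.42 for *Myh3*, 1.15 for *Myh8*, 0.86 for *Mymk* and 0.62 for *Myog*, and edgeR called 0 of the 9 tested members (adjusted p 0.312 to 0.846). DTR replicate 1 is the single *Ddx3y*-marked DTR tendon, so the split cannot be told apart from other traits of that library. Low *Ckm* and *Acta1* were not confined to it. The *Xist*-marked DTR replicate 3 had 9953 and 47293 normalized counts of these, with *Myog* at 568.

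**Figure D4:**
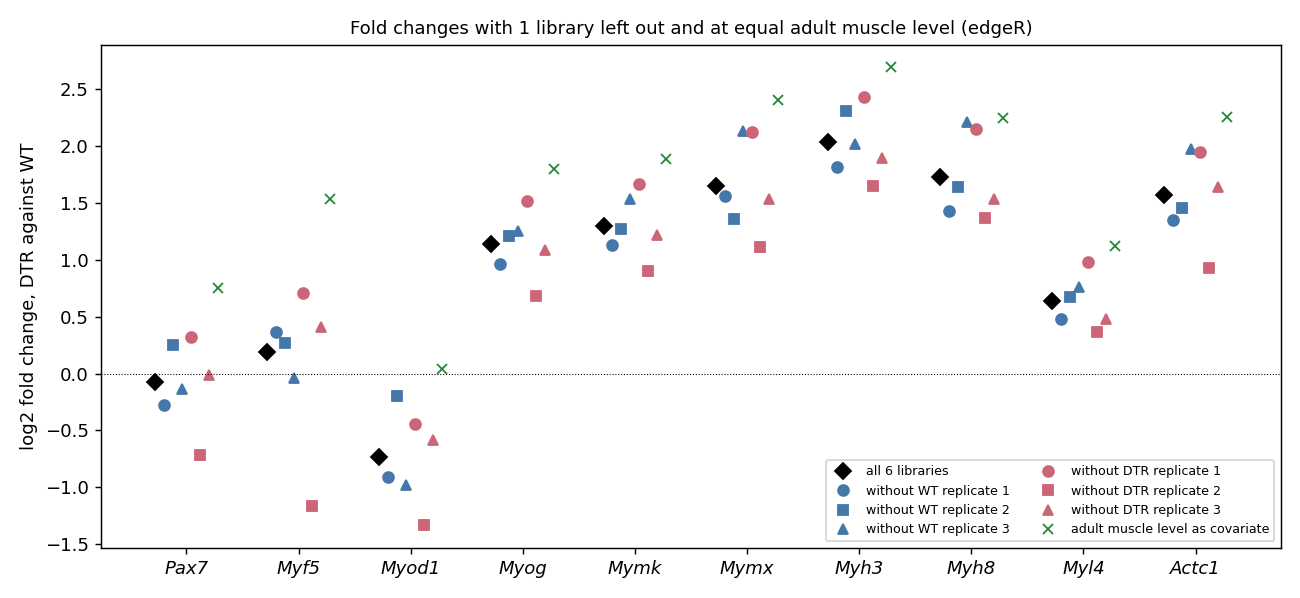
Log2 fold change of each gene, DTR against WT, in all 6 libraries (black), with each library left out in turn (blue WT, red DTR) and at equal adult muscle level (green crosses). From Myog to Actc1 every value is above 0, lowest without DTR replicate 2 and highest among DTR omissions without DTR replicate 1, whereas Pax7 and Myf5 change sign with a library left out and Myod1 and Pax7 at equal adult muscle level.

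The size of the difference in the 7 later genes depended on single DTR libraries. Without DTR replicate 1, 6 of the 9 members other than *Myh3* had both remaining DTR libraries above each WT library, against 12.9% of all genes, and the log2 fold change of *Mymk* was 1.67 and that of *Myog* 1.52. Without WT replicate 3 the count was 3 of 9, against 17.4%, and with any other library left out it was 0, against 11.9% to 16.8%. Without DTR replicate 2 the 2 fold changes were 0.90 and 0.68, *Actc1* was at 0.92 and *Myl4* at 0.36, and edgeR called 0 of the 9 while it called 3.02% of all genes. *Myod1* was then below WT without overlap, as were 17.2% of all genes, whereas with any other library left out 0 members were, against 10.4% to 16.5%.

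Other muscle genes from lists on the same theme did not share the pattern as groups. Of 20 genes of developing or regenerating contractile units outside the 10, such as *Csrp3* and *Xirp1*, 2 were fitted higher and 18 lower, with a median of -0.81 and 0 called by edgeR at an adjusted p under 0.05 or with an unadjusted p under 0.05. This list shares *Ttn* with the adult fast list, and others of its genes are also expressed in adult fibres. At equal adult muscle level its median was 0.05, with 10 of 20 fitted higher. *Nrap*, which binds actin at the ends of myofibrils, averaged 19381 ± 1622 normalized counts in WT tendons and 7797 ± 7609 in DTR tendons (SD, n = 3 each), without overlap, and *Myom3* followed at -1.09. *Tnnt2*, the cardiac and embryonic troponin T and one of the 2 fitted higher, was chosen after its values were seen. Its levels were 765, 696 and 973 in WT and 578, 2728 and 1335 in DTR libraries, again high in DTR replicates 2 and 3.

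Of 24 other myogenic transcription genes, 5 were fitted higher and 19 lower (median -0.27), and 5, all lower, had an unadjusted p under 0.05, where 5.45% of all genes were lower at that level. These were *Id1*, *Id2* and *Id3*, whose products hold back the myogenic factors, at -0.66, -0.26 and -0.61, and the transcription factor genes *Mef2d* at -0.35 and *Tead4* at -0.87, named after their values were seen. *Lbx1*, a limb muscle precursor factor, was at -1.62 (SE 0.76) and *Rbm24*, an RNA-binding protein of muscle, at -1.36 (0.64), both without overlap and with an unadjusted p above 0.05. Among 17 tested genes of a muscle stem cell list the median was -0.02, and *Itga7*, the muscle laminin receptor, had 3964 ± 134 in WT and 2655 ± 454 in DTR tendons (SD, n = 3 each, adjusted p = 0.274 by edgeR). The stem cell gene *Calcr*, a receptor of quiescent stem cells, had at most 4 counts in any library. *Vcam1*, which stem cells share with other cell types, was at 0.60 without overlap.

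In a list of 23 tested fusion genes besides the members, 13 were fitted higher and 10 lower (median 0.10). *Dock1* and *Elmo1*, partners in the signal to the cytoskeleton during fusion but active in many cells, were at 0.20 and 0.21 without overlap. Of 19 synapse and denervation genes 15 were fitted lower (median -0.36), of 10 slow muscle genes 8 (median -0.52), and of 10 myotendinous junction genes 5, with *Col22a1*, a collagen of that junction, at 0.62. Of 10 genes of the myostatin pathway 5 were fitted higher (median -0.02). *Fst*, an inhibitor of myostatin, was at -0.57 and the activin receptor gene *Acvr2b* at -0.59, and *H19*, an imprinted RNA abundant in embryonic muscle and 1 of 3 tested genes in a list of muscle RNA hosts, was at 1.49 (SE 0.41, adjusted p = 0.361 by edgeR). edgeR called 0 genes of these lists. At an unadjusted p under 0.05 it found 2 of 23 fusion genes, 2 of 10 myostatin pathway genes and *H19* higher. Lower at that level were 3 of 10 myostatin pathway genes, 1 of 19 synapse genes and 1 of 10 junction genes. Of all genes, 5.52% were higher and 5.45% lower.

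**Figure D5:**
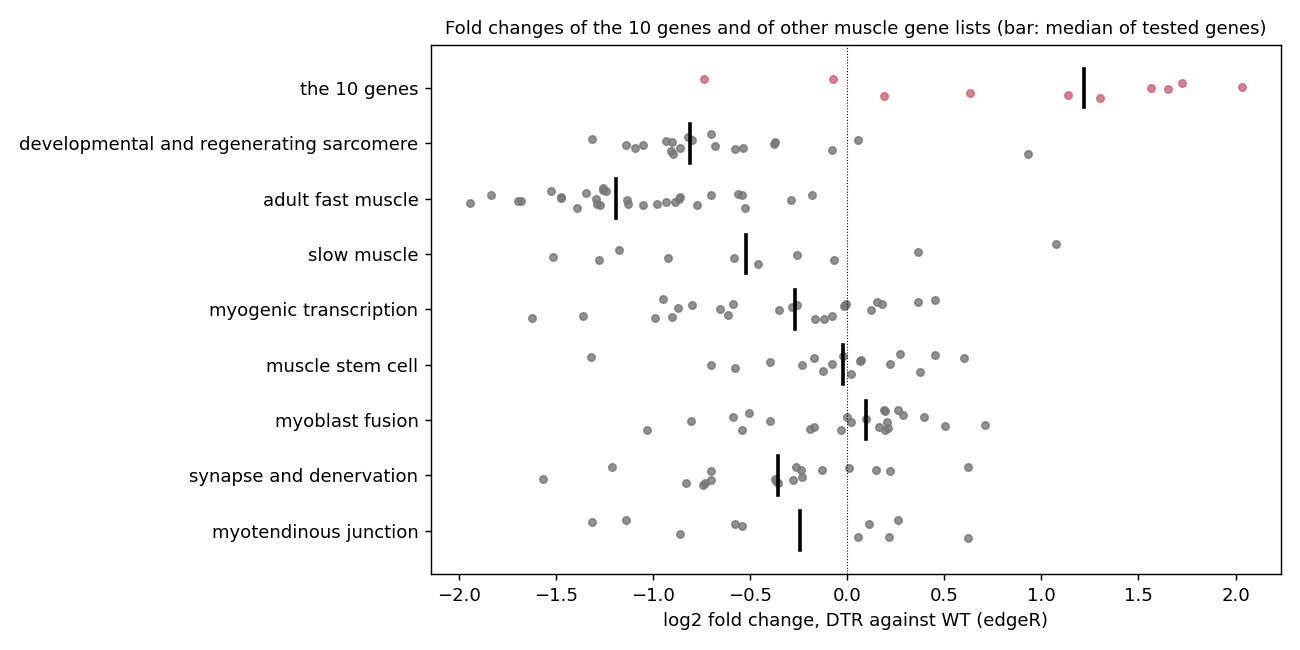
Log2 fold change (DTR against WT, edgeR) of the 10 genes (red) and of the tested genes of 8 other muscle lists (grey), 1 point per gene, with the median of each list as a bar. The median is 1.218 for the 10 genes, which were chosen with results known, and lies between -1.19 and 0.10 for the other lists plotted. The list of RNA hosts with H19, of which 3 genes were tested, has a median of 0.51 and is not plotted.

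*Actc1* and *Myl4* are also used by the heart, and *Actc1* relatives by smooth muscle. Of 14 cardiac genes 8 were tested, *Nkx2-5* had no count in any library, and *Nppa*, *Nppb*, *Myl7* and *Gata4* had at most 4. A list of 12 smooth muscle and myofibroblast genes held 0.232% to 0.318% of the counts in WT and 0.194% to 0.215% in DTR libraries, with 11 of 12 genes fitted lower (median -0.43). The list includes *Des*, which is also in the lists of muscle stem cells and of developing contractile units. *Des* stood at 30858, 25757 and 24981 normalized counts in WT and at 6993, 30236 and 12912 in DTR libraries. How far *Des* set the difference in share was not tested. Of the 8 tested cardiac genes 7 were fitted lower (median -0.78), and the other was *Tnnt2*, with the high values in DTR replicates 2 and 3 given above. The part of other cell types in the levels of *Actc1* and *Myl4* was not tested.

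Across the 6 libraries the late members followed each other closely. Pearson's r of log2 CPM with *Myog* was 0.99 for *Mymk*, 0.97 for *Myl4*, 0.96 for *Myh8* and *Actc1* and 0.95 for *Myh3*, but 0.16 for *Myod1*, while *Pax7* had 0.63 with *Myog*, 0.84 with *Myod1* and 0.88 with *Myf5*. With *Acta1*, r was 0.87 for *Pax7*, 0.91 for *Myf5* and 0.87 for *Myod1*. It ran from 0.015 for *Myh3* to 0.40 for *Myl4* among the late members. The 6 points share 2 groups of 3 and are a description. The genes most like *Myh3* over 14368 genes were *Ube2v2*, *Prss23*, *Rbm25*, *4930412C18Rik* and *Pus10* (r from 0.98 to 0.99), and those most like *Myog* were *Gm45187*, *Atp1b4*, *Arhgdig*, *Slitrk4* and *Tardbp* (r about 0.99). In all, 110 genes had r over 0.9 with *Myh3* and 112 with *Myog*. *Atp1b4*, a muscle membrane protein, stood at 128, 235 and 276 normalized counts across WT libraries and at 185, 885 and 529 across DTR libraries, the same order as *Myog* in DTR tendons.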

How the data were processed

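RNA from 3 DTR and 3 WT FDL tendons was sequenced with single-end reads. After demultiplexing and trimming with FastP, the authors assigned reads to genes with featureCounts and deposited the whole-number counts, not normalized. They also deposited a signal table, whose columns, when checked, equalled the counts over 1 constant per library, with normalization credited to DESeq2 1.22.1 in the submitters' processing notes. The aligner, genome build, annotation and strand setting were not given in the sources used here. Columns were matched to samples by the labels. Groups and replicate numbers came from the titles, which name the time after depletion where the study's methods give D28 after surgery.

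The tests used edgeR 4.0.16 in R 4.3.3 (filterByExpr, TMM, robust quasi-likelihood test of genotype with no covariate, Benjamini-Hochberg adjustment over 17496 genes, threshold 0.05), as well as limma 3.58.1 and DESeq2 1.42.0. Standard errors (SE) were back-calculated from each log2 fold change and its F statistic. Ratios used a pseudocount of 0.5 when compared. On simulated data for these 6 libraries with 200 genes changed, edgeR recovered 48 of 93 genes with a log2 fold change of 1 and 77 of 101 with one of 2, with 21 false calls among 17157 genes. In the real data edgeR called 0 of 17496 genes, so these rates are not taken as the power for the members. Replicates differed by a chi-square of at least 40.1 per degree of freedom, so none was a duplicate. Depth was 42744138 to 48854310 counts per library, and the precision is limited by n = 3. Each library is a separate tendon, so the p-values weigh the group difference against the variation between tendons.

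The members and lists were chosen with earlier results of these data known. Named genes are the members, *Ckm*, *Acta1*, the myosin paralogs, in each muscle list the called genes or else the 2 with the largest log2 fold change without overlap and a mean level of 50 normalized counts or more, and the 5 genes most correlated with *Myh3* and with *Myog*. Alternatives were RLE, DESeq2, limma-voom, other filters, limma on log2(value + 1) of the deposited normalized table, the replicate number as a block, other denominators and covariates, and each library left out. A term for sex-linked transcripts, its interaction with genotype and the isoform shares were added after the data were seen.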

Additional observations from a re-analysis of the deposited data

How the results depend on the processing

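The replicate numbers did not pair the libraries, since the correlations of deviations from the group means were -0.188, -0.149 and -0.684 for numbers 1 to 3. The fit with the replicate number as a block called 1 gene of all those tested and 0 of the 9 tested members, against 0 and 0 without it. Over all genes, DESeq2 called 466, edgeR without a filter on low counts 83, and edgeR with 1 library left out between 0 and 544, the last without DTR replicate 2. DESeq2 called 1 of the 9 members, and the other settings called 0. The median log2 fold change of the 10 genes was 0.742 with the sex-linked term, 1.84 with the muscle covariate and between 0.792 (without DTR replicate 2) and 1.59 (without DTR replicate 1) with 1 library left out. Members above WT without overlap numbered 1 to 7 of 10 with 1 library left out, *Myh3* always among them. Of the other 9 there were 6 without DTR replicate 1, against 12.9% of all genes. There were 3 without WT replicate 3, against 17.4%, and 0 with any other library left out, against 11.9% to 16.8%. Members below WT numbered 1 without DTR replicate 2, against 17.2% of all genes, and otherwise 0, against 10.4% to 16.5%. Of the 10 members, *Myh3* included, 8 to 10 had a ratio to *Ckm* without overlap in the settings run, and 7 had one to *Acta1*. Apart from *Myh3*, 7 to 9 of 9 had one to *Ckm* with 1 library left out, against 10.2% to 95.7% of all genes. With *Acta1* it was 6 of 9, against 1.97%. The combined *Myh3* and *Myh8* share was 6.63 percentage points higher in DTR tendons, and 4.09 to 8.35 with 1 library left out.

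Of the members, 3 changed direction. *Myf5* was at -0.56 in limma-voom, -0.54 with the deposited normalized counts, -0.33 with the replicate block, -0.80 with the sex-linked term and between -1.16 and 0.71 with 1 library left out (-0.04 without WT replicate 3). *Pax7* was at 0.75 with the muscle covariate and between -0.72 and 0.32 with 1 library left out (0.25 without WT replicate 2, 0.32 without DTR replicate 1). *Myod1* was at 0.0403 with the muscle covariate. The cause was not tested. *Myf5* and *Mymx* were not tested where at least 10 counts were required in every library. Both had counts of 3 to 9 in some library, and how far depth limited their estimates was not tested.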

Other observations

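The acetylcholine receptor of muscle also has an immature and an adult subunit, encoded by *Chrng* and *Chrne*, a pair chosen after its values were seen. *Chrng* stood at 74.1, 42.4 and 73.8 normalized counts across WT replicates 1 to 3, against 33.0, 133 and 126 across DTR replicates 1 to 3, with overlap (log2 fold change 0.62, SE 0.52, adjusted p = 0.671 by edgeR). *Chrne* stood at 446, 702 and 314 in WT and 67.0, 338 and 88.3 in DTR libraries (-1.57, SE 0.72). Of the counts of both genes, *Chrng* held 14.2%, 5.69% and 19% in WT and 33.0%, 28.3% and 58.9% in DTR libraries, without overlap. No background over all genes was computed for this share. Both genes belong to the synapse and denervation list, of which 15 of 19 genes were fitted lower (median -0.36).

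*Casq2*, a calcium store protein of slow and cardiac muscle, was likewise chosen after its values were seen. It comes from the slow muscle list, of which 8 of 10 genes were fitted lower (median -0.52). The normalized counts of *Casq2* were 518, 883 and 839 across WT libraries and 548, 2697 and 1465 across DTR replicates 1 to 3 (log2 fold change 1.07, SE 0.63). DTR replicates 2 and 3 were thus above all WT libraries and DTR replicate 1 was not.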
